A study of Mus musculus with 15 samples.

Results

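The genes of the proteasome, the protease that degrades ubiquitin-tagged proteins, were followed in haematopoietic stem cells (HSC) of young, aged and nicotinamide riboside (NR)-treated aged mice. Every row of the count table whose symbol begins with Psma, Psmb, Psmc, Psmd, Psme, Psmf or Psmg and a number was taken, other than the immunoproteasome genes Psmb8 and Psmb9, which gave 48 of 16154 genes. By their place in the particle, 16 belonged to the core, 9 to the base, 8 to the lid, 7 to the assembly factors and 5 to the regulators. The remaining 3 rows match the name only in part: Psmc3ip encodes a meiotic recombination cofactor and no proteasome subunit, Psme2b is a near-identical copy of Psme2, and Psmb6-ps2 is a pseudogene. All mice were C57BL/6 and labelled female, with 5 mice and 1 library per mouse in each group. Young mice were 6 to 12 weeks old and untreated, aged mice were 20 to 24 months old and untreated, and the NR group held aged mice of 20 to 24 months given NR for 2 months at 3 mg/ml in the drinking water. NR is a form of vitamin B3 and a precursor of NAD. The libraries were read from the 3′ end of polyadenylated RNA of 20000 to 25000 sorted cells with a unique molecular identifier (UMI) of 10 bp on each molecule.

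The core particle is a barrel of stacked rings, with alpha rings that form the gate at each end and beta rings that hold the proteolytic sites inside. The regulatory particle caps it: the ring of ATPases in the base unfolds the substrate and opens the gate, and the lid removes the ubiquitin chain. Dedicated chaperones assemble both, and alternative caps such as PA28 and PA200 can replace the regulatory particle. Most subunits are made in fixed proportions, and their genes are known to be induced together by the transcription factor Nfe2l1 when proteolysis falls short. HSC are known for a low rate of protein synthesis and for depending on protein quality control.

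Total counts ran from 764119 to 13318989 per library, with medians of 2685764 in young, 6007460 in aged and 3162434 in NR-treated aged HSC. Levels are given as counts per 1000000 counts (CPM) on library sizes normalised by the trimmed mean of M-values (TMM). Of the 48 genes, 46 had at least 10 counts in every library, the exceptions being Psmb7 and Psmb6-ps2. All 7 stem cell markers examined (Kit, Ly6a, Slamf1, Procr, Hlf, Mecom and Fgd5) were present in every library. Of 34 markers of mature blood cells, 32 were in the table, and their summed level was 372 to 9200 CPM in young, 7420 to 10700 in aged and 303 to 972 in NR-treated libraries, so that the aged group stood above all NR-treated libraries and all young libraries other than replicate 3, which overlapped the aged range. In the NR-treated group 15 of the 32 were at 0 in some library and 1 was at 0 in every library. The 4 Y-linked genes listed summed to 99.7 CPM in young replicate 1 and 105 CPM in young replicate 5, against at most 3 CPM in all other libraries, which goes against the female label of these 2 libraries, and results are also given without them. In bulk RNA a change in the kinds of cells present and a change of RNA per cell cannot be told apart.

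Aged HSC had higher levels of proteasome genes than young HSC. Of the 48 genes 16 rose and 1 fell at an adjusted p under 0.05 (edgeR's quasi-likelihood test, Benjamini-Hochberg adjustment), where 9.68% of all genes rose and 9.63% fell. The fold change was positive for 43 of 48 genes, against 47.2% of all genes. Their median log2 fold change was 0.254, compared with −0.0323 over all genes, so the differences were small in size. The 5 aged and 5 young libraries did not overlap for 9 genes in the direction of higher in aged (6.86% of all genes) and for 1 gene in the direction of lower (5.53%). Without young replicates 1 and 5, 6 genes rose and 1 fell, and the median was 0.278. The number that rose was 8 without young replicate 4, 8 without aged replicate 3, 9 without aged replicate 5, and 10 without young replicate 1 or 5. It was also 8 when the counts were scaled by library totals, which shifted the median of all genes to −0.164 and that of the proteasome genes to 0.127, with the distance between the medians at 0.291 compared with 0.287 under TMM. Where every library was required to hold 10 counts or more, 46 proteasome genes remained, 38 of them positive. Their median was 0.187, at a smaller distance of 0.197 from that of all genes.

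**Figure D1:**
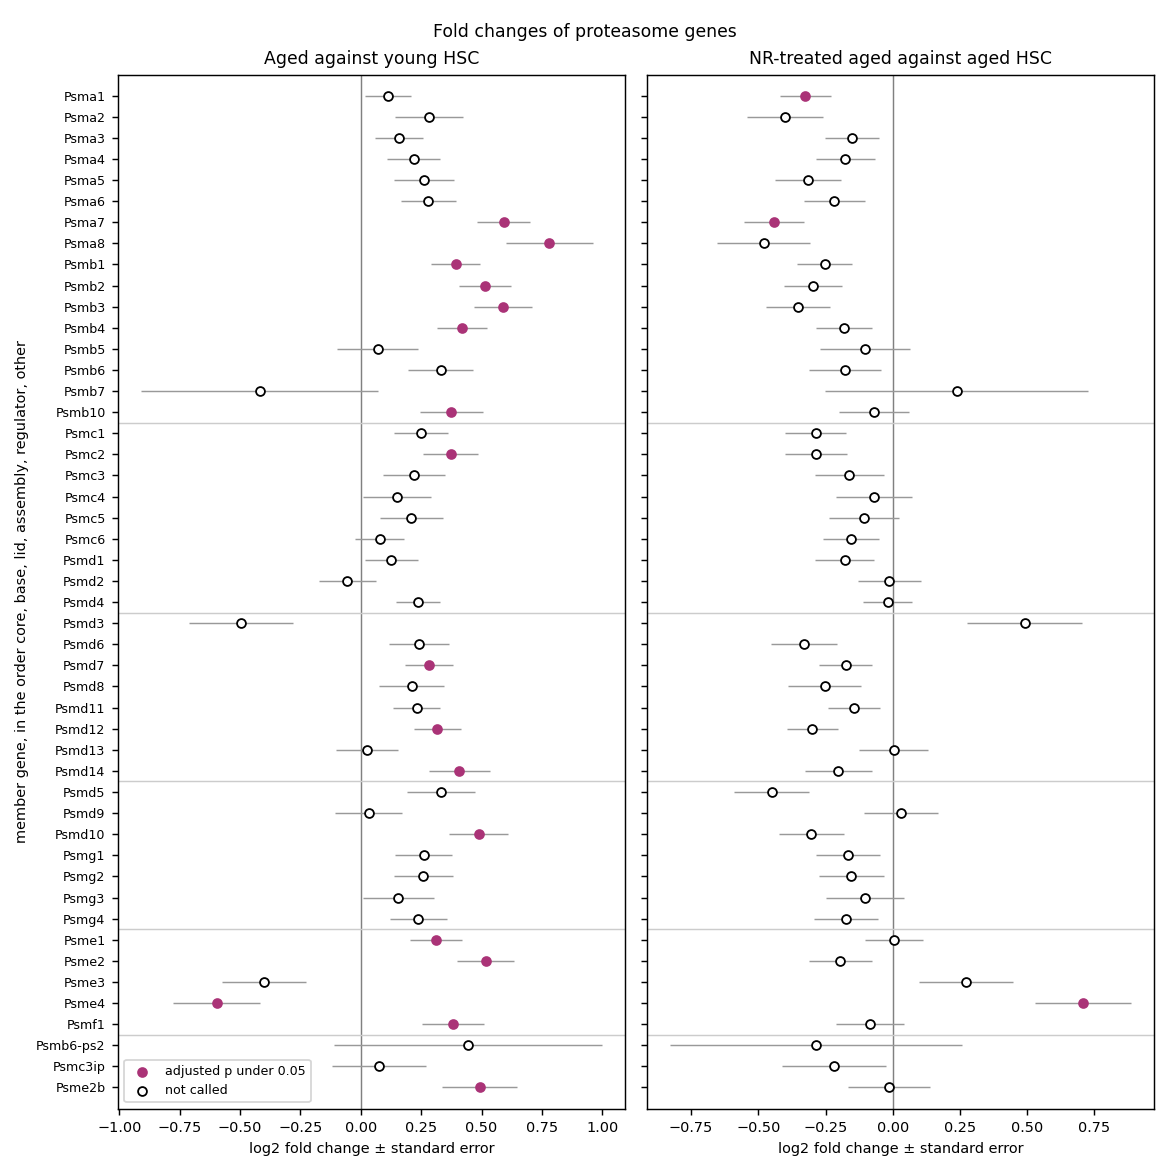
Log2 fold change (x axis) with its standard error for each of the 48 genes (y axis, grouped by place in the particle), for aged against young HSC on the left and NR-treated aged against aged HSC on the right, 5 libraries a group. Filled points had an adjusted p under 0.05: 17 on the left, of which 16 lie above 0, and 3 on the right, of which 2 lie below 0.

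The core particle, the largest of the classes, held the most genes that rose, 7 of 16. The median log2 fold change over its 16 genes was 0.306, with positive values for 15. Of the 5 regulators 3 rose, with a median of 0.31. Among the alpha subunits 2 of 8 rose. Psma7, a subunit of the alpha ring (chromosome 2: 180036374 to 180042433, GRCm38), was measured at 1310, 1510, 1090, 1330 and 1300 CPM in the young libraries and at 2060, 2180, 2010, 1780 and 1810 CPM in the aged libraries. Every aged library lay above every young library, and the log2 fold change was 0.59 ± 0.11 (SE, adjusted p = 0.00114). Psma8, known as the testis form of the same ring position, was scarce but rose from 13.7 ± 2.14 to 22.9 ± 4.3 CPM (SD, n = 5 each), a log2 fold change of 0.78 (adjusted p = 0.00499), the largest among the core genes. Its groups overlapped, with aged replicate 2 at 15.6 CPM inside the young range of 12 to 17.3 CPM. The other 6 alpha genes had log2 fold changes of 0.11 to 0.28 and none was called.

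Of the beta subunits 5 of 8 rose, and 4 of these are the structural subunits Psmb1, Psmb2, Psmb3 and Psmb4, which carry no proteolytic site. Psmb3 (chromosome 11: 97703399 to 97713500) read 199, 209, 199, 194 and 197 CPM in young and 258, 352, 313, 294 and 290 CPM in aged libraries. The young libraries of this gene were tight, within 194 to 209 CPM, and all aged libraries lay above them, with a log2 fold change of 0.59 ± 0.12 (SE, adjusted p = 0.00232). Psmb2 read 298, 317, 277, 229 and 249 CPM in young and 373, 384, 417, 373 and 408 CPM in aged libraries. Again the groups were apart, by a log2 fold change of 0.51 ± 0.11 (SE, adjusted p = 0.00293). Psmb4 rose by 0.42 (adjusted p = 0.00832) with no overlap of the groups. Psmb1 rose by 0.39 (adjusted p = 0.0115), although young replicate 2, at 649 CPM, exceeded the lowest aged libraries. Without young replicates 1 and 5, Psmb1 (0.39, adjusted p = 0.0582) and Psmb4 (0.39, adjusted p = 0.0587) were not called, while Psma7, Psma8, Psmb2 and Psmb3 were.

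The catalytic beta subunits were not called, with the exception of the immunoproteasome form Psmb10. Whether the catalytic subunits differ from the structural ones was not tested. Psmb5, which carries the chymotrypsin-like site, read 25.3, 33.4, 20.2, 25.4 and 22.1 CPM in young and 23.7, 29.8, 28.7, 24.9 and 26.7 CPM in aged libraries. Its groups overlapped over most of their range, with a log2 fold change of 0.07 ± 0.168 (SE, adjusted p = 0.818). Psmb6, the caspase-like subunit, stood at 352 ± 60.9 CPM in young and 443 ± 51.5 CPM in aged libraries (SD, n = 5 each), a log2 fold change of 0.33 that missed the threshold (adjusted p = 0.0909). Psmb7, the trypsin-like subunit, was hardly detected, at 1.81 to 5.12 CPM in young and 1.21 to 3.47 CPM in aged libraries. With so few counts a difference could not be resolved (adjusted p = 0.598), and even aged replicate 3, the deepest library, held only 16. In the annotation the exons of Psmb7 share 405 bases with Nek6 on the opposite strand. Of these, 253 lie within the last 500 bases of the gene, where 3′ reads fall. Whether this overlap lowered the counts of Psmb7 was not tested. Psmb10, the inducible counterpart of Psmb7, rose by 0.38 (adjusted p = 0.0491), and this call was lost in 9 of the 15 fits that left out 1 library, with adjusted p up to 0.108. It was also lost without young replicates 1 and 5 (adjusted p = 0.139). The excluded partners of Psmb10 in the immunoproteasome, Psmb8 and Psmb9, rose by 0.34 (adjusted p = 0.047) and 0.41 (adjusted p = 0.0182). These calls held in 2 and 14 of the 15 fits that left out 1 library, with that of Psmb9 lost without young replicate 4 (adjusted p = 0.0535), and neither held without young replicates 1 and 5.

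In the base 1 of 9 genes rose, with a median log2 fold change of 0.209 over the 9. The ATPase gene Psmc2 read 101, 139, 137, 110 and 115 CPM in young and 131, 180, 167, 153 and 151 CPM in aged libraries. The ranges overlapped, and the log2 fold change was 0.37 ± 0.115 (SE, adjusted p = 0.0284). This call was lost without young replicate 1, 4 or 5 or aged replicate 2 or 3, with adjusted p of 0.0624 to 0.0773. With young replicates 1 and 5 both left out, the log2 fold change was 0.275 and was not called (adjusted p = 0.186). The other 5 ATPases had positive values of 0.08 to 0.25 and were not called. Of the non-ATPase subunits, the scaffold genes Psmd1 and Psmd2 stood at 0.13 and −0.06, and Psmd4, a ubiquitin receptor, at 0.24 (adjusted p = 0.0771).

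In the lid 3 of 8 genes rose, with a median of 0.236. Psmd14 encodes the deubiquitinase that strips the ubiquitin chain from the substrate. Its level was 121, 106, 118, 91.1 and 121 CPM in young and 125, 150, 144, 152 and 169 CPM in aged libraries, a log2 fold change of 0.41 ± 0.126 (SE, adjusted p = 0.0284). The groups did not overlap, though by a narrow margin. Psmd12, a structural lid subunit, read 148, 174, 157, 139 and 174 CPM in young and 188, 202, 208, 190 and 198 CPM in aged libraries. It rose by 0.32 ± 0.0964 (SE, adjusted p = 0.0268) with no overlap. Both calls were lost without young replicate 4, aged replicate 3 or aged replicate 5. Psmd14 was in addition lost without aged replicate 4, and Psmd12 without young replicate 1, with adjusted p of 0.0509 to 0.0825 over these fits. Psmd7 rose by 0.28 (adjusted p = 0.0484) and kept this call in 2 of 15 fits that left out 1 library, with adjusted p up to 0.113. Without young replicates 1 and 5, Psmd12 (adjusted p = 0.0744) and Psmd7 (adjusted p = 0.234) were not called, while Psmd14 was. Psmd3, a lid subunit, went the other way, with 53, 37.4, 55.7, 42.1 and 60.7 CPM in young and 27.3, 18.2, 29.8, 47.6 and 47.4 CPM in aged libraries. Aged replicates 1 to 3 were low and replicates 4 and 5 lay within the young range, and the log2 fold change of −0.50 was not called (adjusted p = 0.113).

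Of the 7 assembly factors 1 rose, with a median of 0.258 and positive values for all 7. Psmd10, also known as gankyrin, a chaperone of the base, increased from 77.5 ± 12.8 to 109 ± 10.8 CPM (SD, n = 5 each), a log2 fold change of 0.49 (adjusted p = 0.00903). Young replicate 2, at 99.3 CPM, reached the lowest aged library at 99 CPM. Without young replicates 1 and 5 the log2 fold change was 0.38 and was not called (adjusted p = 0.0935). The core chaperones Psmg1 to Psmg4 had values of 0.15 to 0.26, none called.

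Of the 5 regulators 3 rose, 1 fell and Psme3 was not called. Psme1 and Psme2, which form the interferon-inducible PA28 cap of the immunoproteasome, both rose. Psme2 read 159, 176, 139, 161 and 157 CPM in young and 227, 219, 230, 209 and 247 CPM in aged libraries, with no overlap and a log2 fold change of 0.52 ± 0.118 (SE, adjusted p = 0.00499). Psme2b rose alongside it by 0.49 (adjusted p = 0.0315), but the transcripts of both are 99.4% identical over 794 bases, so the split of reads between them is uncertain. Psme2b kept its call in 9 of the 15 fits that left out 1 library, with adjusted p up to 0.0713. The sum of both was 209 ± 15.1 CPM in young and 300 ± 23.1 CPM in aged libraries (SD, n = 5 each), and the ranges of 185 to 227 and 267 to 323 CPM did not overlap. Psme1 rose by 0.31 (adjusted p = 0.0496) and Psmf1, the inhibitor PI31, by 0.38 (adjusted p = 0.0429). Both stood close to the threshold and kept their calls in 2 and 6 of the 15 fits without 1 library, with adjusted p up to 0.126 and 0.14. Without young replicates 1 and 5, Psme1 (adjusted p = 0.134), Psmf1 (adjusted p = 0.249) and Psme2b (adjusted p = 0.0699) were not called, while Psme2 was.

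The nuclear caps lay in the opposite direction. Psme4, which encodes PA200, known for the degradation of acetylated histones, read 31.9, 36.6, 40.9, 75.1 and 48.8 CPM in young and 32.2, 24.7, 29.2, 31.5 and 34.3 CPM in aged libraries. Young replicate 4 was far above the other young libraries, and young replicate 1 lay inside the aged range. Psme4 fell by 0.60 ± 0.18 on the log2 scale (SE, adjusted p = 0.0256), and without young replicate 4 the difference was −0.36 and not called (adjusted p = 0.0969). It was also not called without young replicate 5 (adjusted p = 0.0529) or aged replicate 3 (adjusted p = 0.0602). Psme3, which encodes PA28 gamma, was 33.2 to 42.8 CPM in young and 22.3 to 31.5 CPM in aged libraries, with no overlap, but its log2 fold change of −0.40 was not called (adjusted p = 0.115).

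**Figure D2:**
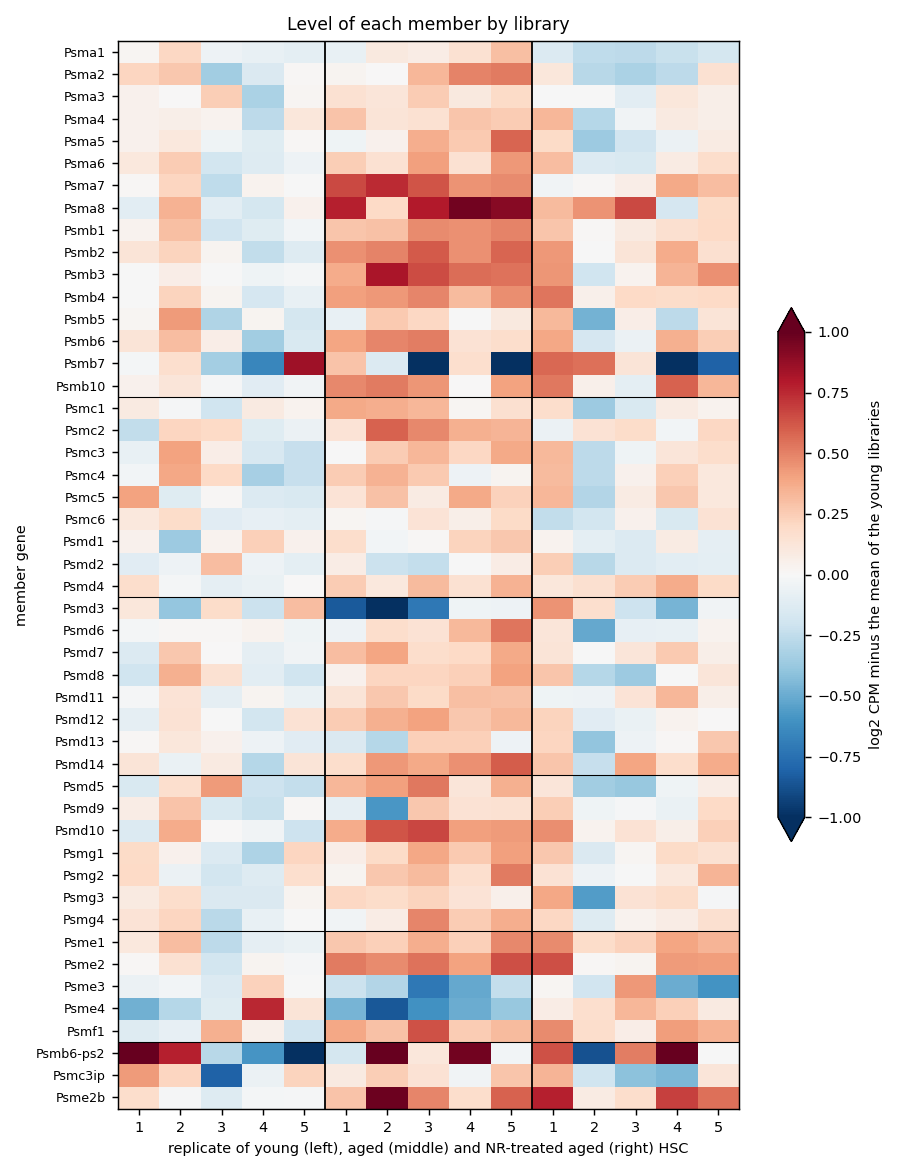
Log2 CPM of each of the 48 genes (rows, grouped by place in the particle) in each of the 15 libraries (columns), as the difference from the mean of the young libraries, with a colour scale limited to −1 and 1. Red cells fill most of the aged columns in the core rows, and the Psme4 row is blue in the aged columns.

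Sequences at the start sites of 4 genes are shown because these genes illustrate both directions: Psma7, Psmb3 and Psmd12, with aged libraries above all young ones, and Psme4, which fell. Each is the RefSeq (GRCm38.p6) window from 250 bases before to 50 bases after the start, read 5′ to 3′ on the strand of the gene. Capitals mark matches on either strand to 3 motifs: the letters TGACNNNGC at the heart of the antioxidant response element read by Nfe2l1 and Nfe2l2, the CCAAT box, and the GC box GGGCGG. Overlapping matches merge to 1 run of capitals.
Psma7 (chr2:180042415-180042714, minus strand): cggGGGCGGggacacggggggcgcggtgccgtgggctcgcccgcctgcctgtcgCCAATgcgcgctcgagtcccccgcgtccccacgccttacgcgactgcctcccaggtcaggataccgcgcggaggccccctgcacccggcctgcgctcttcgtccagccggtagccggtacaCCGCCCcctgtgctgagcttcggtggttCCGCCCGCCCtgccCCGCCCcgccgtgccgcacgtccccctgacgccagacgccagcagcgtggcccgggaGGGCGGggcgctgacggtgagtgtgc
Psmb3 (chr11:97703184-97703483, plus strand): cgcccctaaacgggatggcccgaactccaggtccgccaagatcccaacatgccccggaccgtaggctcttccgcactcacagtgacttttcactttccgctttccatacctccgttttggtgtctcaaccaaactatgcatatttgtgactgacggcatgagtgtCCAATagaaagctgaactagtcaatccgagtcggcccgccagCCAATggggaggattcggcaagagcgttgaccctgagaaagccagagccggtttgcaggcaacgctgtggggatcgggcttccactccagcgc
Psmd12 (chr11:107479278-107479577, plus strand): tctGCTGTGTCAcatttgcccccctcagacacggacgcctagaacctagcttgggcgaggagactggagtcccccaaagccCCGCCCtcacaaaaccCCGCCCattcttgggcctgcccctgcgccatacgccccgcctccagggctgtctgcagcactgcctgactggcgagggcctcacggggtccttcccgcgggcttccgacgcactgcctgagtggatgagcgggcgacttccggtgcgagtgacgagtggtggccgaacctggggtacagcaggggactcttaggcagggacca
Psme4 (chr11:30771525-30771824, plus strand): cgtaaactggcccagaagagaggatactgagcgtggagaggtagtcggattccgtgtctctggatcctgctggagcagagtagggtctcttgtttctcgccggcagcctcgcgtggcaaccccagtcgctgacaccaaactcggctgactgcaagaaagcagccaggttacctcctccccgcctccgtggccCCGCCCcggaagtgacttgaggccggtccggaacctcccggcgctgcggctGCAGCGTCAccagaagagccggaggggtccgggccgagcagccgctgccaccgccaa
The Psma7 window held 6 GC boxes and 1 CCAAT box, and the Psmb3 window held 2 CCAAT boxes and no GC box. The Psmd12 and Psme4 windows each held 1 match to TGACNNNGC, so this match occurred in a gene that rose and in the gene that fell. Of 42 promoters found for 39 of the genes, 14.3% held TGACNNNGC, against 12.4% of all 32851 promoters and 14.5% of those of genes in the count table. The CCAAT box was in 31.0% (37.4% of all promoters) and the GC box in 54.8% (35.7% of all promoters and 60.2% of those of genes in the table). A match is a string of letters and no measured binding site.

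After NR treatment most of these genes lay below the untreated aged level, by small amounts. Compared with aged HSC, 2 of the 48 genes fell and 1 rose, where 4.18% of all genes fell and 3.88% rose. The log2 fold change was negative for 41 of 48 genes and positive for 7, while 51.8% of all genes had a positive value (48.2% negative), with a median of −0.177 compared with 0.0201 over all genes. With library totals 16 of 48 values were positive and the medians were −0.0439 and 0.161 over all genes, at a distance of −0.205 compared with −0.197 under TMM. Where every library was required to hold 10 counts or more, the median of 46 proteasome genes was −0.106, and so was its distance from the median of all genes. The aged libraries enter both this comparison and the one with young HSC, so the 2 comparisons are not independent. Psma7 read 1270, 1310, 1360, 1690 and 1610 CPM after NR, below all aged libraries, a log2 fold change of −0.44 ± 0.111 (SE, adjusted p = 0.0213). Psma1, another alpha subunit, fell from 305 ± 29 to 243 ± 8.87 CPM (SD, n = 5 each), a log2 fold change of −0.33 (adjusted p = 0.0396). Its NR-treated libraries of 234 to 255 CPM lay below both the aged range of 267 to 347 CPM and the young range of 262 to 324 CPM.

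The only gene that rose after NR was Psme4, which had fallen with age. Its NR-treated libraries read 46.9, 50.1, 56, 52.6 and 47.4 CPM, all above the aged maximum of 34.3 CPM, and the log2 fold change was 0.71 ± 0.179 (SE, adjusted p = 0.0216). Without aged replicate 3 or without NR-treated replicate 3 none of the 3 genes was called. Psma7 then stood at adjusted p of 0.0576 and 0.0595, Psma1 at 0.0806 and 0.0895, and Psme4 at 0.0597 and 0.0574. Psme4 was also not called without NR-treated replicate 4 (adjusted p = 0.0538). Psma1 was not called in 8 of the 15 fits that left out 1 library (aged replicates 2 to 5 and NR-treated replicates 2 to 5), with adjusted p of up to 0.117, reached without aged replicate 5. It was also not called without young replicates 1 and 5 (adjusted p = 0.0575). The number of genes that fell was 4 without young replicate 2 or without NR-treated replicate 1, and 6 by DESeq2, 5 by limma voom and 0 with library totals.

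Between the groups, 5 genes had NR-treated libraries entirely below the aged ones (4.95% of all genes), namely Psma1, Psma7, Psmb1, Psmb2 and Psmd12, and Psme4 was entirely above (3.65%). The structural subunits Psmb1, Psmb2, Psmb3 and Psmb4 stood at log2 fold changes of −0.25, −0.30, −0.35 and −0.18 with adjusted p of 0.125, 0.0942, 0.0747 and 0.281, and were not called. Psmd12 stood at −0.30 (adjusted p = 0.0592), and Psmd5, an assembly chaperone of the base, at −0.45 (adjusted p = 0.0502). Of the genes of the immunoproteasome and its cap, Psme1 differed from the aged level by 0.00 ± 0.108 and Psmb10 by −0.07 ± 0.13, while Psme2 differed by −0.20 ± 0.117 (SE), which is beyond the median of the 48 genes, and none was called. The excluded Psmb8 and Psmb9 differed by 0.07 and 0.01. Whether these genes respond differently from the structural subunits was not tested.

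**Figure D3:**
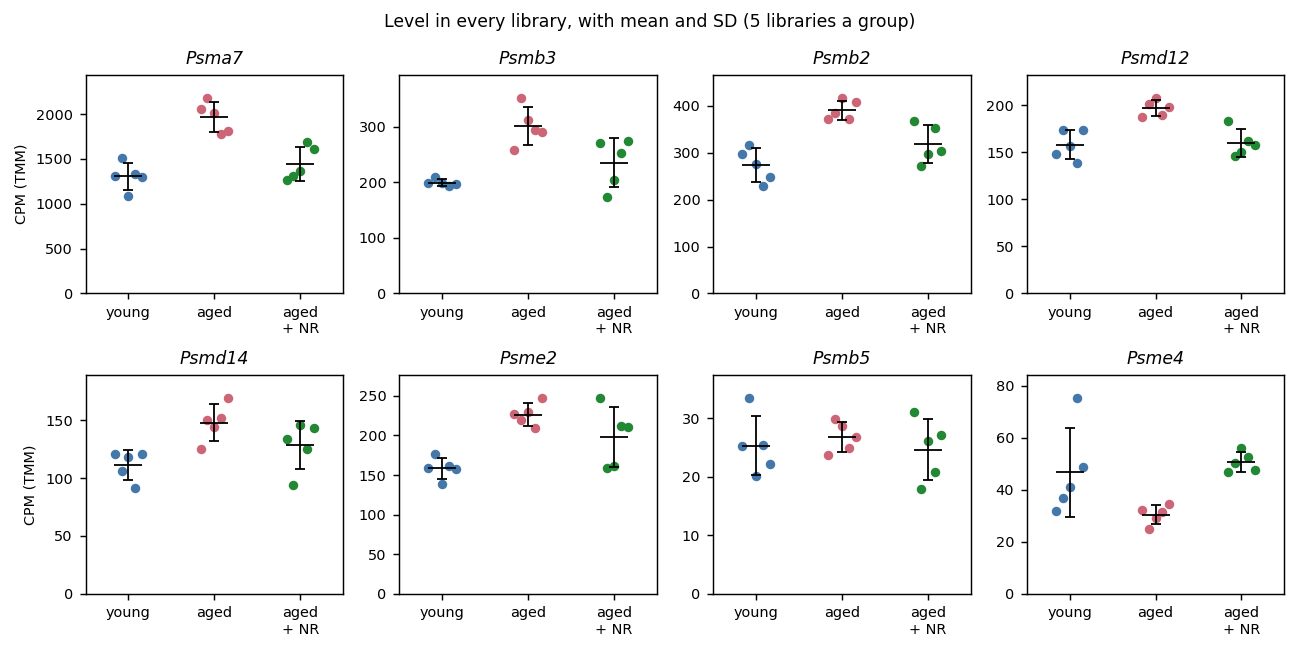
CPM (y axis, from 0) of 8 genes in every library of the young, aged and NR-treated aged groups (x axis), with the mean and SD of 5 libraries. The aged points of Psma7 (1780 to 2180 CPM) lie above both other groups, Psmb5 overlaps throughout, and the aged points of Psme4 (24.7 to 34.3 CPM) lie below all NR-treated points.

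Compared with young HSC, none of the 48 genes was called in NR-treated aged HSC by the quasi-likelihood test, where 2.56% of all genes rose and 1.91% fell. DESeq2 called 1 higher, while the likelihood ratio test and limma voom called 0. At an unadjusted p under 0.05, 7 were higher and 1, Psma1, was lower, where 8.47% of all genes were higher and 9.5% lower. Of the 48 genes only Psma1 had groups that did not overlap, and it was lower in every NR-treated library (1.94% of all genes lay lower without overlap and 2.8% higher). The log2 fold change was positive for 33 genes and negative for 15, against 49.4% and 50.6% of all genes, with a median of 0.0721 compared with −0.00461 over all genes. The highest values were those of Psme2b at 0.48 (adjusted p = 0.0864), Psme2 at 0.32 (adjusted p = 0.14) and Psme1 at 0.31 (adjusted p = 0.11), and Psmb10 stood at 0.31 (adjusted p = 0.213). Outside the 48 genes, Psmb8 and Psmb9 were higher than in young HSC by 0.41 (adjusted p = 0.0481) and 0.42 (adjusted p = 0.0405), calls that held in 3 and 6 of the 15 fits that left out 1 library and not without young replicates 1 and 5. A gene that missed the threshold here was not shown to be at the young level.

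Summed over its 16 genes, the core particle read 4710, 5250, 4210, 4200 and 4440 CPM in young, 5950, 6220, 6320, 5780 and 6130 CPM in aged, and 5230, 4320, 4510, 5300 and 5240 CPM in NR-treated libraries. The aged libraries lay above all others, and the NR-treated libraries separated into replicates 2 and 3, near the lower young libraries, and replicates 1, 4 and 5, at the top of the young range. Psma7 alone made up a large share of this sum, so it is not an even view of the 16 genes. The base sum was 1470 to 1720 CPM in young, 1740 to 1880 in aged and 1390 to 1780 in NR-treated libraries. For the lid it was 1020 to 1210, 1180 to 1390 and 978 to 1240 CPM. The regulator sum was 567 to 732 CPM in young and 739 to 864 CPM in aged libraries, and at 694 to 884 CPM the NR-treated libraries covered the aged range. The sum for the assembly factors was 479 to 608, 586 to 728 and 482 to 638 CPM. NR-treated replicate 2 was the lowest NR-treated library for each of the 5 sums.

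**Figure D4:**
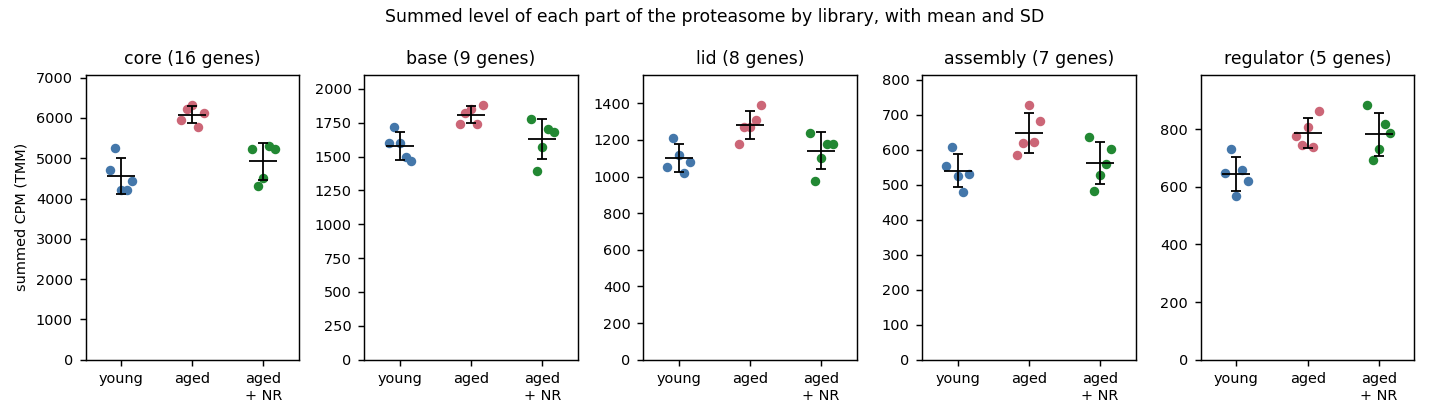
Summed CPM (y axis, from 0) of the core, base, lid, assembly and regulator genes in each library of the young, aged and NR-treated aged groups (x axis), with the mean and SD of 5 libraries. The aged core sums of 5780 to 6320 CPM lie above all other libraries, while the NR-treated regulator sums of 694 to 884 CPM cover the aged range.

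Proteasome genes also varied together among libraries of the same group. Over deviations from the group means in the 15 libraries, for genes above a mean of 50 CPM, the median correlation between pairs was 0.653 for the beta genes, 0.315 for the alpha genes, 0.37 for the lid and 0.172 for the base, against 0.049 for pairs among 4162 genes. These values share their libraries and are given as a description. The gene that followed the mean of core, base and lid most closely was the ATPase gene Psmc3 (r = 0.896), then Psmb2 (r = 0.869). For each gene the mean was taken without that gene. Psmd1 (r = −0.263) and Psmc2 (r = 0.0118) did not follow it. For the mean of all core, base and lid genes above 50 CPM, the correlation with the deviation in log2 total counts was 0.0396 over 15 libraries.

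Of 30 further genes that act with the proteasome, 4 rose and 2 fell in aged compared with young HSC, against 9.68% and 9.63% of all genes, and their median log2 fold change was 0.0319. Ngly1, the deglycosylase needed to activate Nfe2l1, rose by 0.46 (adjusted p = 0.0068), and Nfe2l2, a regulator of antioxidant genes, by 0.41 (adjusted p = 0.0206). Sem1, a small lid subunit that does not carry a Psm symbol, rose by 0.40 (adjusted p = 0.0189) and Txnl1, a thioredoxin-like protein bound to the regulatory particle, by 0.33 (adjusted p = 0.0457). Uba6, a ubiquitin-activating enzyme, fell by 0.50 (adjusted p = 0.013) and Rad23b, a shuttle for ubiquitinated substrates, by 0.41 (adjusted p = 0.0157), both on the log2 scale. Nfe2l1 itself stood at −0.02 (adjusted p = 0.941), and Pomp, the maturation factor of the core, at 0.24 (adjusted p = 0.102). After NR 2 of the 30 fell and none rose compared with aged HSC (4.18% and 3.88% of all genes): the ubiquitin gene Ubb (−0.42, adjusted p = 0.0481) and Ngly1 (−0.41, adjusted p = 0.0284). At an unadjusted p under 0.05 the counts were 4 higher and 7 lower, where 12.6% of all genes were higher and 12.4% lower. Ngly1 and Ubb were not called in 6 and 10 of the 15 fits that left out 1 library, with adjusted p up to 0.103 and 0.131. Of the calls with age, that of Txnl1 held in 4 of these 15 fits. Sem1 was lost without young replicate 5, aged replicate 3 or aged replicate 5 (adjusted p up to 0.0552). Nfe2l2 was lost without aged replicate 3 (adjusted p = 0.0606). The calls of Ngly1, Uba6 and Rad23b with age held in all 15. Without young replicates 1 and 5, Sem1, Txnl1, Nfe2l2, Uba6 and Rad23b were not called with age, and Ngly1 was. None of the 30 was called between NR-treated and young HSC, where 0 were higher and 0 lower at an unadjusted p under 0.05.

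Transcript length and abundance moved with the fold changes over the whole table. Among 12288 protein-coding genes the Spearman correlation of the longest annotated transcript with the log2 fold change was −0.264 in aged against young HSC and 0.243 in NR-treated against aged HSC. Over 47 of the proteasome genes it was −0.36 and 0.265. Genes with transcripts under 1500 bases had a median log2 fold change of 0.22 with age, near the 0.261 of the 18 proteasome genes of that length. Over 3000 bases the medians were −0.0973 for all genes and 0.229 for 6 proteasome genes. Among the 2110 genes above a mean of 100 CPM, 22.4% rose with age with a median of 0.147, compared with 12 of 33 proteasome genes and a median of 0.262. In NR-treated against aged HSC, 11.1% of these 2110 genes fell with a median of −0.157, against 2 of 33 and a median of −0.181, a share below that of abundant genes. The part of length, abundance or the mature blood markers in the proteasome values was not tested. A list of 10 cell cycle genes, summed at 827 to 1530 CPM in young, 597 to 1060 in aged and 328 to 943 in NR-treated libraries, had no gene called in any comparison (quasi-likelihood test). At an unadjusted p under 0.05, 3 of them were lower in aged than in young HSC, 4 were lower in NR-treated than in young HSC, and 0 differed between NR-treated and aged HSC.

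**Figure D5:**
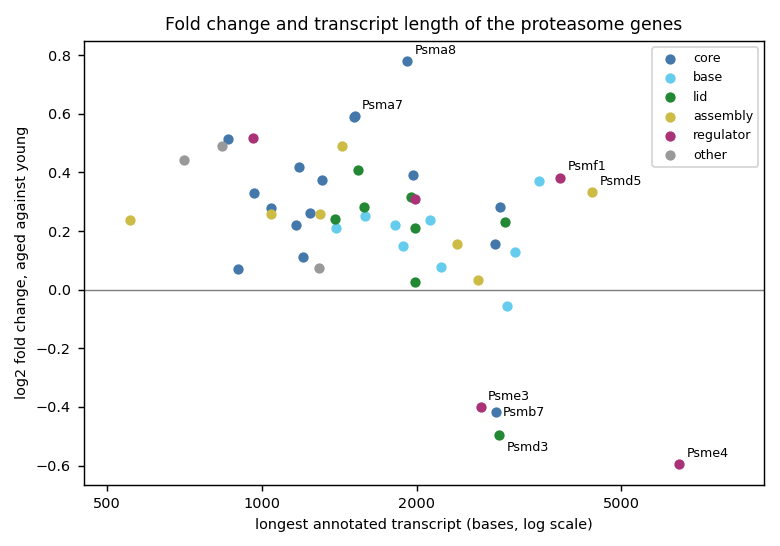
Log2 fold change in aged against young HSC (y axis) against the longest annotated transcript in bases (x axis, log scale) for the proteasome genes, coloured by place in the particle. The longest transcript, that of Psme4, has the lowest value, and the genes below 1500 bases all lie above 0.

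Close copies limit some of these values. Of the 48 genes 16 had a transcript of another gene at least 95% identical over at least 200 bases, and for 8 this was a pseudogene. For Psmb7, Psmc3ip, Psmd1, Psmd13 and Psmg3 the match was a gene whose exons overlap theirs at the same place in the genome, and no separate copy. For Psmb5 the pseudogene Gm3375, 98.9% identical over 796 bases, held at most 3.89 CPM, and the sum of both was 26.3 ± 5.1 CPM in young and 28.1 ± 3.73 CPM in aged libraries (SD, n = 5 each). For Psmb3 the pseudogene Gm4950 (97.1% identical over 615 bases) held at most 18.2 CPM. The summed ranges of 199 to 217 CPM in young and 262 to 370 CPM in aged libraries remained apart. Reads that match a gene and its copy alike may be missing from both rows, and the sums do not recover them. The same limit holds for the sum of Psme2 and Psme2b. Psmd13, which was not called in any comparison, overlaps Sirt3 on the opposite strand by 342 bases, none of them in the last 500 bases of the gene.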

How the data were processed

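Gene expression was measured by 3′ RNA sequencing of sorted HSC from 5 young, 5 aged and 5 NR-treated aged mice, grouped by the submitters' labels. The authors aligned reads with STAR 2.4.2a to GRCm38, removed reads with duplicated UMIs and counted the rest per gene with featureCounts. They deposited whole-number read counts of 16154 genes, filtered for low values and not normalised. Whether the counting used strand is not given in the sources used here.

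All 15 libraries entered 1 fit in edgeR 4.0.16 (R 4.3.3) with TMM sizes and no factor besides the group. Genes were called by quasi-likelihood F-tests at a p under 0.05, adjusted by Benjamini-Hochberg over 16154 genes. The study itself used likelihood ratio tests, which were run as an alternative. CPM use the TMM sizes. The other alternatives were DESeq2 1.42.0, limma 3.58.1 voom, only the 2 groups compared, library totals, DESeq2 size factors, at least 10 counts in every library, thinning to the smallest total, a replicate block, young replicates 1 and 5 left out, and each library left out in turn. The test was checked on simulated counts. With total counts from 764119 to 13318989, 3 counts were worth 0.225 to 3.93 CPM, which covers counting error only.

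Values are printed for genes past the threshold in any comparison, the gene with the largest change in each class, Psmb5, Psmb6, Psmb7, Psmb10, Psmd4, Psmd14, Psme1 to Psme4 and Psmf1. Of the 30 genes that act with the proteasome, values are given for those past the threshold and for Nfe2l1 and Pomp. Psmd5, Psmd1, Psmd2, Psmc3, Psmd13 and the copies were named after their values were seen. The genes and lists were chosen with earlier results of these data known, and 2 genes of those lists are not reported here. Positions and lengths are from GENCODE M21 (GRCm38), promoters from RefSeq, and copies were found with BLAST 2.17.0.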

Additional observations from a re-analysis of the deposited data

Results flagged for a closer look

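In groups of 5 libraries, the gap between the most extreme library and its nearest neighbour was set against the whole range of the group, with 0.71 as the limit, for 87 groups of single genes and sums. Chance alone passes this limit in about 1 of 20 groups, and 2 of the 87 passed it. Psmb10 was 189 CPM in aged replicate 4, against 250 to 271 CPM in the other aged libraries. Psmb4 was 389 CPM in NR-treated aged replicate 1, against 277 to 308 CPM in the other NR-treated libraries.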

How the results depend on the processing

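None of the 17 and 3 proteasome genes called, and none of the called genes named outside the 48, changed direction under any of the 15 fits that left out 1 library or the 10 other alternatives. Of the 17 genes called between aged and young HSC, 8 kept their call in all 15 fits without 1 library, and 4 of these (Psma7, Psmb2, Psmb3 and Psme2) in all 10 others as well. None of the 3 genes called between NR-treated and aged HSC did so. The cause of the changes below was not tested, other than that thinning and left-out libraries leave fewer counts. In aged against young HSC the number higher (16) was 8 with library totals, 6 after thinning and 6 without young replicates 1 and 5, and 8 to 17 without 1 library. The number lower (1) was 0 with only the 2 groups compared, 3 with library totals, 0 after thinning, and 0 to 1 without 1 library. In NR-treated against aged HSC the number lower (2) was 6 by DESeq2, 5 by limma voom, 0 with library totals, 1 with at least 10 counts in every library, 0 after thinning, 1 without young replicates 1 and 5, and 0 to 4 without 1 library, and the number higher (1) was 0 to 1 without 1 library. In NR-treated aged against young HSC the number higher (0) was 1 by DESeq2 and 0 to 1 without 1 library.

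Deviations of libraries of the same replicate number had a mean correlation of 0.00663, from −0.252 to 0.137. Between young and aged libraries the values were 0.0988, 0.102, 0.104, 0.137 and −0.0196 for replicates 1 to 5. Libraries of different numbers were not set beside these, so whether those of the same number deviate together was not tested. The numbers were not taken as pairs. With the replicate block 11 genes were higher and 1 lower in aged against young HSC, 1 was lower and 1 higher in NR-treated against aged HSC, and the uncalled Psmd3 changed sign to 0.0142 in NR-treated against young HSC.

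Other log2 fold changes that changed sign were of uncalled genes. Over all 48 genes, library totals changed the sign of 7 in aged against young, 9 in NR-treated against aged and 1 in NR-treated against young HSC. Of the genes named by rule, with library totals these were, in aged against young HSC, Psma1 (−0.0122) and Psmb5 (−0.0598); in NR-treated against aged HSC, Psmb10 (0.0614), Psmb5 (0.0359), Psmd4 (0.117), Psme2b (0.12) and Psmf1 (0.0549); and in NR-treated against young HSC, Psmd3 (0.00183). With at least 10 counts in every library they were Psmb5 (−0.00128, aged against young), Psmd4 (0.0538) and Psme2b (0.0651, both NR-treated against aged) and Psmd3 (0.000373, NR-treated against young). After thinning they were Psmb10 (0.0168) and Psmb7 (−0.0905) in NR-treated against aged HSC, and Psmd12 (−0.0453) and Psmd3 (0.0312) in NR-treated against young HSC. Psme2b in NR-treated against aged HSC was 0.00449 by DESeq2 and 0.0326 by limma voom. Without young replicates 1 and 5, in NR-treated against young HSC, they were Psmb7 (0.175), Psmc2 (−0.0115), Psmd3 (0.144) and Psme4 (−0.0146). Without 1 library, the ranges in NR-treated against aged HSC were −0.152 to 0.0156 for Psmb10, −0.0578 to 0.0162 for Psmd4, −0.0226 to 0.0482 for Psme1 and −0.0902 to 0.0895 for Psme2b, and in NR-treated against young HSC −0.129 to 0.0831 for Psmb5, −0.399 to 0.115 for Psmb7, −0.0313 to 0.0538 for Psmd12 and −0.133 to 0.0919 for Psmd3. Psmb7, at 0.24 against aged and −0.18 against young HSC after NR, was the gene farthest from 0 among these named genes. Low counts limit Psmb7 and Psmb6-ps2 most, with 1 to 3 counts in their lowest libraries.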
